A study of Mus musculus with 20 samples.

Results

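Neat1, Malat1, Firre, Kcnq1ot1 and Gas5, 5 of the 49568 gene rows in the count tables, are long noncoding RNAs grouped here as nuclear noncoding RNAs. They were chosen by measured values, because Neat1 and Firre were lower in long-term haematopoietic stem cells (LT-HSC) of Ahr knockout mice than in wild-type (WT) mice. That comparison, and the difference of the knockout effect between cell populations that contains it, are therefore described for these 5 genes without a test. The same holds for Neat1 and Firre where MPP are set against the Ahr-KO LT-HSC libraries in which they had been seen to be low. Each of the 5 symbols was found once in each table, and each passed the filter on low counts in every comparison.

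Bone marrow cells were sorted by flow cytometry into LT-HSC, which renew themselves and all blood lineages, and multipotent progenitors (MPP), which keep all lineages open but renew little. Animals were 8 to 12 weeks old, untreated, and either C57BL/6 WT or labelled AHR KO (here Ahr-KO), with C57BL/6 given as the strain of all. Ahr encodes the aryl hydrocarbon receptor, a transcription factor switched on by small ligands, and the series asks which of its targets bear on stem cell function and proliferation. The 4 groups were WT LT-HSC, Ahr-KO LT-HSC, WT MPP and Ahr-KO MPP, each with 5 libraries numbered as in the labels. The knockout allele, the sort markers, the number of animals behind a library and any batch are not given in the labels or files. The library protocol in the labels speaks of dendritic cells (DC) with 3 samples a group, although no such cells are among these libraries and each group here has 5.

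RNAs of this kind act mostly without being translated. Neat1 is the scaffold on which paraspeckles, nuclear bodies rich in RNA-binding proteins, are built, while Malat1 accumulates in nuclear speckles beside the splicing machinery. Firre is made from the X chromosome, carries a repeated sequence that binds the nuclear matrix protein Hnrnpu, and is involved in the anchoring and contacts of chromosomes in the nucleus. Kcnq1ot1 is an unspliced RNA made from the paternal copy of the Kcnq1 locus, antisense to Kcnq1, and silences imprinted neighbours on that chromosome, among them the cell cycle inhibitor Cdkn1c. Gas5 hosts small nucleolar RNAs (snoRNAs) in its introns, and its spliced RNA, which accumulates when growth stops, is found largely in the cytoplasm, where it is broken down during translation and can bind the glucocorticoid receptor. Counts per gene hold no information on where in the cell an RNA was, so the nuclear label could not be checked.

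The library protocol, the same text that speaks of DC, gives capture of RNA by oligo-dT beads. Whether it applies to these libraries could not be checked, but if it does, what carries a run of A bears on what could be counted. Sequences below are from the GENCODE M21 transcripts (GRCm38), written 5′ to 3′ on the transcribed strand in lower case. The short form of Neat1 (3004 nt) ends with a polyadenylation signal, and the long form that builds paraspeckles (20771 nt) is known to end without a poly(A) tail. The last 60 bases of both are shown with the signal AATAAA in capitals, which only the short form holds there (chr19:5842307-5842366 and chr19:5824708-5824767, minus strand).
Short Neat1 3′ end: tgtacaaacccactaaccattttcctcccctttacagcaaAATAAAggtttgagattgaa
Long Neat1 3′ end: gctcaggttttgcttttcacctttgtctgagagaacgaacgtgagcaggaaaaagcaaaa
The mature 3′ end of Malat1 is likewise not polyadenylated but is protected by a triple helix that involves a genome-encoded A tract. In the annotated full-length Malat1 (6983 nt) the longest run of A is 12 bases long, at positions 6674 to 6685. It is shown in capitals with 30 bases on each side (chr19:5795958-5796029, minus strand).
Malat1 A run: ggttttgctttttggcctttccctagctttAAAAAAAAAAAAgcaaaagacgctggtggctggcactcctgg
Kcnq1ot1 is annotated as a single exon of 93092 nt that holds 30 runs of 8 or more A. The longest of them is 41 bases, at positions 69565 to 69605, and is in capitals below with the same flanks (chr7:143226915-143227015, minus strand).
Kcnq1ot1 A run: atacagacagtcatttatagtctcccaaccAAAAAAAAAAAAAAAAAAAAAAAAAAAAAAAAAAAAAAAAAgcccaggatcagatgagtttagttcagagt
Long Neat1 and the spliced Firre transcript of 5555 nt held no run of 8 or more A. Per-gene counts cannot separate the forms of Neat1, and which ends were captured was not measured.

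Firre is the member with the repeated sequence: 15.0% of the 50-base windows of that spliced transcript occur more than once in it, against 0.125% in long Neat1, 0.0172% in Kcnq1ot1 and none in Malat1. A stretch of 80 bases occurs 5 times and the 50 bases in capitals within it 8 times, so reads from inside it match several places of the same gene. The first copy lies at chrX:50600744-50600823 (minus strand).
Firre repeat: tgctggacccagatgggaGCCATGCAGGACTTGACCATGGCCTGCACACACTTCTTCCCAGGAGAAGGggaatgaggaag

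On the genome (GRCm38, GENCODE M21), Neat1 and Malat1 are neighbours on the minus strand of chromosome 19, at chr19:5824708-5845478 and chr19:5795690-5802672. Firre lies at chrX:50555744-50635321 (minus), Kcnq1ot1 at chr7:143203458-143296549 (minus, antisense within Kcnq1) and Gas5 at chr1:161034422-161038539 (plus). The kit named in that protocol does not mark strand, so that reads from Kcnq1ot1 and Kcnq1, or from Gas5 and the end of Zbtb37 that overlaps it, could not be told apart by strand if it was used. Kcnq1 itself held 0 to 3 counts in a library. Inside the members, all 3 small features in Neat1, both in Malat1, and the 8 small RNAs within Gas5, snoRNAs such as Snord47 and Snord78, were listed at 0 counts in all 20 libraries.

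RefSeq promoter windows (GRCm38.p6), 250 bases before a gene's start to 50 after it, were held for Gas5 (2 starts), Kcnq1ot1, Malat1 and Firre. GCGTG, the core of the element that AHR binds, was searched on both strands and was present in 32.4% of all 32851 windows. Of the 5 windows, only that of the second Gas5 start held it, 2 times. This window also held TGACGTCA, the palindromic cAMP response element found in 1.79% of windows, and both motifs are in capitals (chr1:161034916-161035215, plus strand).
Gas5 promoter: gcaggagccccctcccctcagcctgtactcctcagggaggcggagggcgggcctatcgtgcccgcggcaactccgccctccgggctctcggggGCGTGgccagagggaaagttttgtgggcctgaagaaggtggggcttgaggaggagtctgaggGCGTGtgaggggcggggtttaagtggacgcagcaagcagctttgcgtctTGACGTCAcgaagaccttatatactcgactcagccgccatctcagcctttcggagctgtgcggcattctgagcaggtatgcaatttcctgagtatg
In the Firre window the E-box CACGTG, found in 7.15% of windows, occurred once and is in capitals (chrX:50635272-50635571, minus strand).
Firre promoter: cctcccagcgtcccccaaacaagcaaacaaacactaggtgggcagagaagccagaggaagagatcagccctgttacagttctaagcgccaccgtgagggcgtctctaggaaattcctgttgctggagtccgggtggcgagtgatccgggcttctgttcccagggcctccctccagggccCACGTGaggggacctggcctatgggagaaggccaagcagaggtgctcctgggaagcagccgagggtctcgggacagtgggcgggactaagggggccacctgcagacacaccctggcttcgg
The longer AHR element TNGCGTG, present in 5.07% of windows, was in none of the 5. Kcnq1ot1 held 3 copies of CCAAT, a box present in 37.4% of windows. These are matches of letters and not measured binding.

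Library totals ranged from 13712668 to 21622653 counts. Levels are given as counts-per-million on TMM-scaled library totals (CPM), and fold changes as log2 values with standard errors from edgeR. LT-HSC and MPP libraries matched their labels by markers: summed LT-HSC markers were 1827 to 2309 CPM in LT-HSC and 576 to 1003 CPM in MPP, and summed MPP markers were 490.0 to 876 CPM and 2589 to 3749 CPM. Ahr transcript did not check the genotype, since LT-HSC means were 26.5 ± 6.35 CPM (WT) and 23.6 ± 4.14 CPM (Ahr-KO; SD, n = 5 each), those of MPP 9.81 ± 3.66 and 15.9 ± 3.91 CPM, and neither difference was called. WT LT-HSC 1 stood apart, with a correlation of 0.839 to 0.849 to the other WT LT-HSC libraries and 0.354% of counts from mitochondrial genes, against 0.973% to 1.17% in those. Every library held Xist, the RNA of X inactivation, at 19.2 CPM or more. Nothing in the labels says that libraries came from separate animals, so p-values measure the spread between these samples, which may be technical.

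Per kilobase of annotated exon, Gas5 and Malat1 were the most abundant members and Kcnq1ot1 the least. Group means on this per-length scale were 44.7 to 78.0 CPM per kb for Gas5, 30.7 to 65.7 for Malat1, 1.10 to 11.7 for Firre, 0.447 to 2.46 for Neat1 and 0.139 to 0.349 for Kcnq1ot1. The order was Gas5, Malat1, Firre, Neat1, Kcnq1ot1 in 19 of 20 libraries, and in WT LT-HSC 1 Malat1 and Gas5 changed places at 40.4 CPM per kb each. Spreads of Gas5 and Malat1 overlapped in MPP, at 66.6 ± 12.2 and 49.3 ± 18.6 CPM per kb in WT (SD, n = 5 each). The value for Gas5 rests on 3760 bases of exons from 25 annotated transcripts, many longer than the spliced forms of 346 and 502 nt. That of Neat1 is divided by the 20771 bases of the long form, while the short form has 3004 nt. The place of Neat1 below Firre therefore depends on the length taken. Under the capture given in that protocol, levels of Neat1 and Malat1 are those of what the beads retained.

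**Figure D1:**
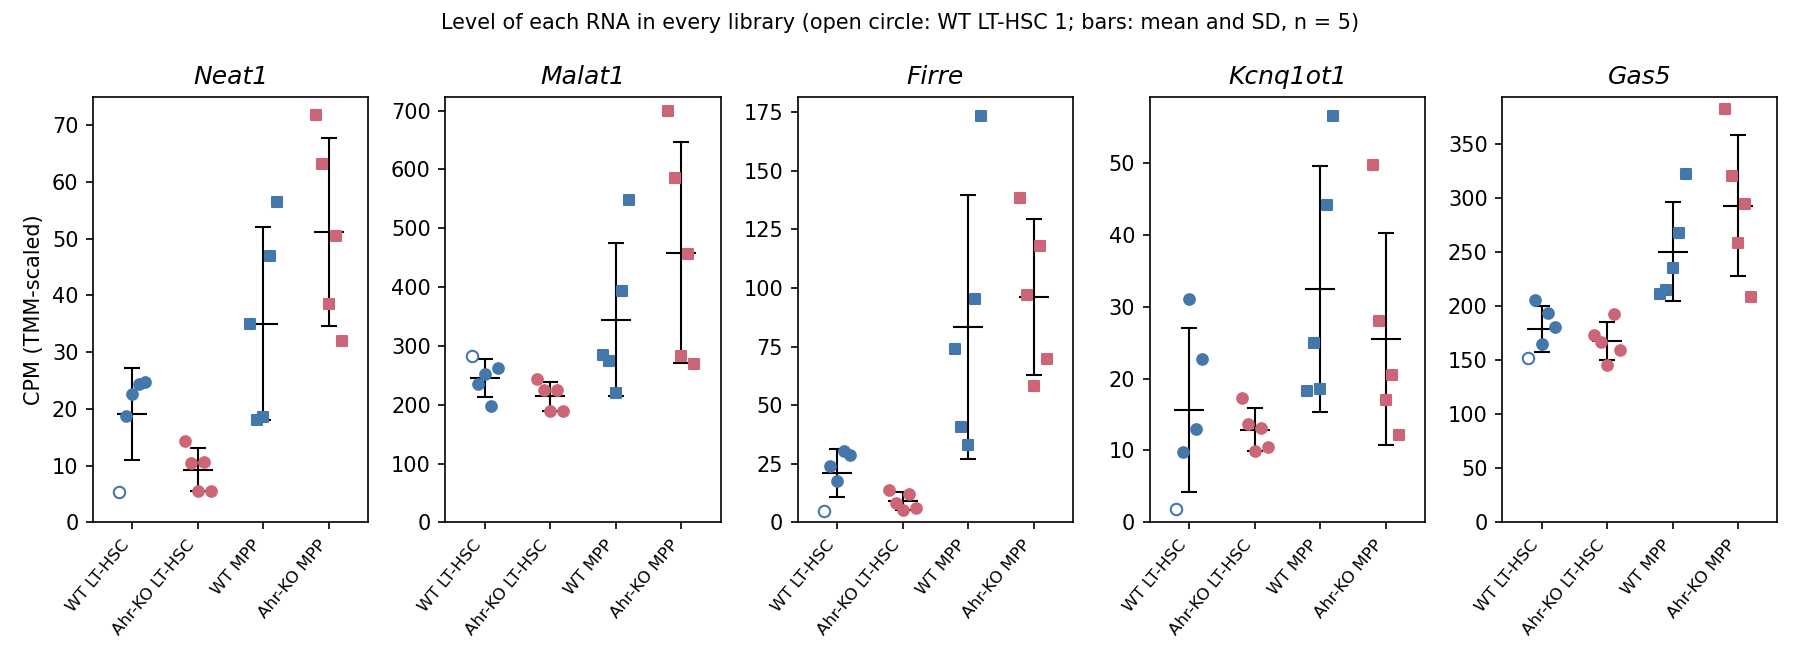
CPM of each RNA (y axes, linear from 0, one scale per gene) in the 20 libraries, with circles for LT-HSC, squares for MPP, blue for WT and red for Ahr-KO. Horizontal marks and bars are the mean and SD of 5 libraries, and the open circle is WT LT-HSC 1. Of WT LT-HSC, that library holds the lowest Neat1 (5.33 CPM), Firre (4.99 CPM), Kcnq1ot1 (1.85 CPM) and Gas5 (152 CPM). It also holds the highest Malat1 (282 CPM).

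In LT-HSC, the comparison that chose them, Neat1 and Firre had lower means in Ahr-KO than in WT, and the fold changes of the other 3 RNAs lay closer to 0. Neat1 was at 5.33, 18.7, 22.6, 24.3 and 24.8 CPM in WT LT-HSC 1, 4, 5, 6 and 8, while Ahr-KO LT-HSC 1, 2, 3, 4 and 7 were at 14.3, 10.5, 5.50, 10.6 and 5.51 CPM. All 5 Ahr-KO libraries were below 4 of the WT libraries and above WT LT-HSC 1, so the groups overlapped through that library alone. The log2 fold change was -1.03 ± 0.40 with it and -1.27 ± 0.26 without it. In bulk samples fewer cells of a type and less RNA per cell cannot be told apart.

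Firre showed the same arrangement of the groups. It was at 4.99, 23.9, 17.7, 30.3 and 28.9 CPM in WT and at 13.6, 8.31, 5.08, 12.2 and 6.30 CPM in the Ahr-KO libraries. Again the 5 Ahr-KO libraries lay below 4 WT libraries and above WT LT-HSC 1. Its log2 fold change was -1.20 ± 0.44, and -1.46 ± 0.27 without that library. Over all genes tested, 1.41% had every Ahr-KO library below every WT library, and 4.25% did once WT LT-HSC 1 was left out. By adjusted p, edgeR called 0.00622% of 16065 genes in this comparison, and 1.24% of 16338 without that library. Nothing is read from these shares for Neat1 and Firre, since the comparison chose them.

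Relative to its mean, Kcnq1ot1 had the widest spread of the members in WT LT-HSC (SD 72.7% of the mean), at 1.85, 9.75, 31.1, 13 and 22.7 CPM. Ahr-KO LT-HSC were at 17.3, 13.7, 9.90, 13.2 and 10.4 CPM. The groups overlapped with and without WT LT-HSC 1. Its log2 fold change was -0.27 ± 0.54, and -0.56 ± 0.31 without it.

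Malat1 and Gas5 differed least, and of WT LT-HSC, library 1 was the highest for Malat1 and the lowest for Gas5. Malat1 was at 282, 235, 251, 197 and 262 CPM in WT and at 244, 225, 189, 226 and 189 CPM in Ahr-KO libraries, a log2 fold change of -0.18 ± 0.11. Gas5 was at 152, 206, 165, 194 and 181 CPM in WT and at 173, 167, 146, 193 and 160 CPM in Ahr-KO, a log2 fold change of -0.08 ± 0.10. Both overlapped between genotypes, and without WT LT-HSC 1 their values were -0.13 ± 0.10 and -0.14 ± 0.08.

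Neutrophil, monocyte and erythroid marker sums reached higher values in Ahr-KO than in WT LT-HSC, through Ahr-KO LT-HSC 2 and 3 alone. No marker of these lists was called. Of 13 neutrophil markers, 13 had a positive fold change and the sum ran from 94.2 to 1401 CPM in WT and from 137 to 3431 CPM in Ahr-KO. All 12 monocyte and macrophage markers were positive too, with sums of 539 to 823 and 476 to 3104 CPM, and all 10 erythroid markers, with sums of 418 to 1867 and 131 to 3019 CPM. No marker of these lists was at 0 in all libraries of a group. Erythroid sums in Ahr-KO LT-HSC 1, 4 and 7, at 382, 225 and 131 CPM, lay below every WT library. Neutrophil sums of those libraries were 527, 256 and 137 CPM. Without Ahr-KO LT-HSC 2 and 3 Neat1 was at -0.91 ± 0.50 and Firre at -0.98 ± 0.53. Among other blood lists, 6 of 6 tested B and plasma cell markers were positive, 2 of 6 T and NK cell markers and 4 of 9 megakaryocyte markers. Stromal and endothelial markers summed to 3819 CPM in Ahr-KO LT-HSC 3 and to at most 174 CPM in the other LT-HSC libraries. Ribosomal protein genes summed to 24150 to 28520 CPM in WT and to 29010 to 31420 CPM in Ahr-KO LT-HSC. All 13 mitochondrially encoded genes were positive (median 0.52, and 0.29 without WT LT-HSC 1), with none called. Of 17 immediate early genes, which respond fast to stimuli and to cell handling, 15 were negative (median -0.52). Without WT LT-HSC 1 Jun and Gem were called lower, against 0.814% of all genes. The part of these lists and sums in the values of Neat1 and Firre was otherwise not tested.

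MPP libraries were not used to choose the genes, and there no member was called between genotypes. None of the 5 passed edgeR's test at an adjusted p under 0.05, nor at an unadjusted one, in a comparison that called 0.0311% of 16077 genes. The direction for Neat1, Malat1, Firre and Gas5 was towards higher values in Ahr-KO. Adjusted p-values ran from 0.802 for Neat1 to 0.949 for Firre, and these do not show that the genotypes are alike.

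Neat1 was at 35.0, 18.0, 18.6, 46.9 and 56.4 CPM in WT MPP 1 to 5 and at 71.7, 63.2, 38.5, 50.5 and 31.9 CPM in Ahr-KO MPP 1 to 5. The groups overlapped, although 2 Ahr-KO libraries lay above every WT library. Its log2 fold change was 0.55 ± 0.33, with a 95% interval of -0.09 to 1.18.

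Firre was at 73.9, 40.8, 32.9, 95.2 and 173 CPM in WT MPP and at 139, 97.1, 58.0, 118 and 69.8 CPM in Ahr-KO MPP. WT libraries spanned more than the Ahr-KO ones and included both the lowest and the highest value. The log2 fold change was 0.20 ± 0.44, with an interval of -0.66 to 1.07.

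Malat1 was at 285, 275, 219, 394 and 548 CPM in WT MPP and at 699, 586, 283, 456 and 270 CPM in Ahr-KO MPP, a log2 fold change of 0.41 ± 0.31. Gas5 was at 211, 216, 236, 268 and 323 CPM and at 383, 321, 259, 295 and 209 CPM, a log2 fold change of 0.22 ± 0.16. Kcnq1ot1 alone had a lower mean in Ahr-KO, at 18.3, 24.9, 18.6, 44.1 and 56.5 CPM in WT and 49.7, 28.0, 17.03, 20.4 and 12.1 CPM in Ahr-KO, with a log2 fold change of -0.36 ± 0.41. All 3 overlapped between genotypes.

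The difference of the knockout effect between MPP and LT-HSC, given without a test because it holds the choosing comparison, was positive for 4 of the 5. In edgeR it was 1.59 ± 0.55 on the log2 scale for Neat1, 1.42 ± 0.64 for Firre, 0.61 ± 0.35 for Malat1, 0.32 ± 0.20 for Gas5 and -0.07 ± 0.71 for Kcnq1ot1. Without WT LT-HSC 1 the values were 1.82 ± 0.46 and 1.67 ± 0.57 for Neat1 and Firre. No gene of 17416 was called for this difference by edgeR, at 1125 genes with an unadjusted p under 0.05, while DESeq2 called 51.

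**Figure D2:**
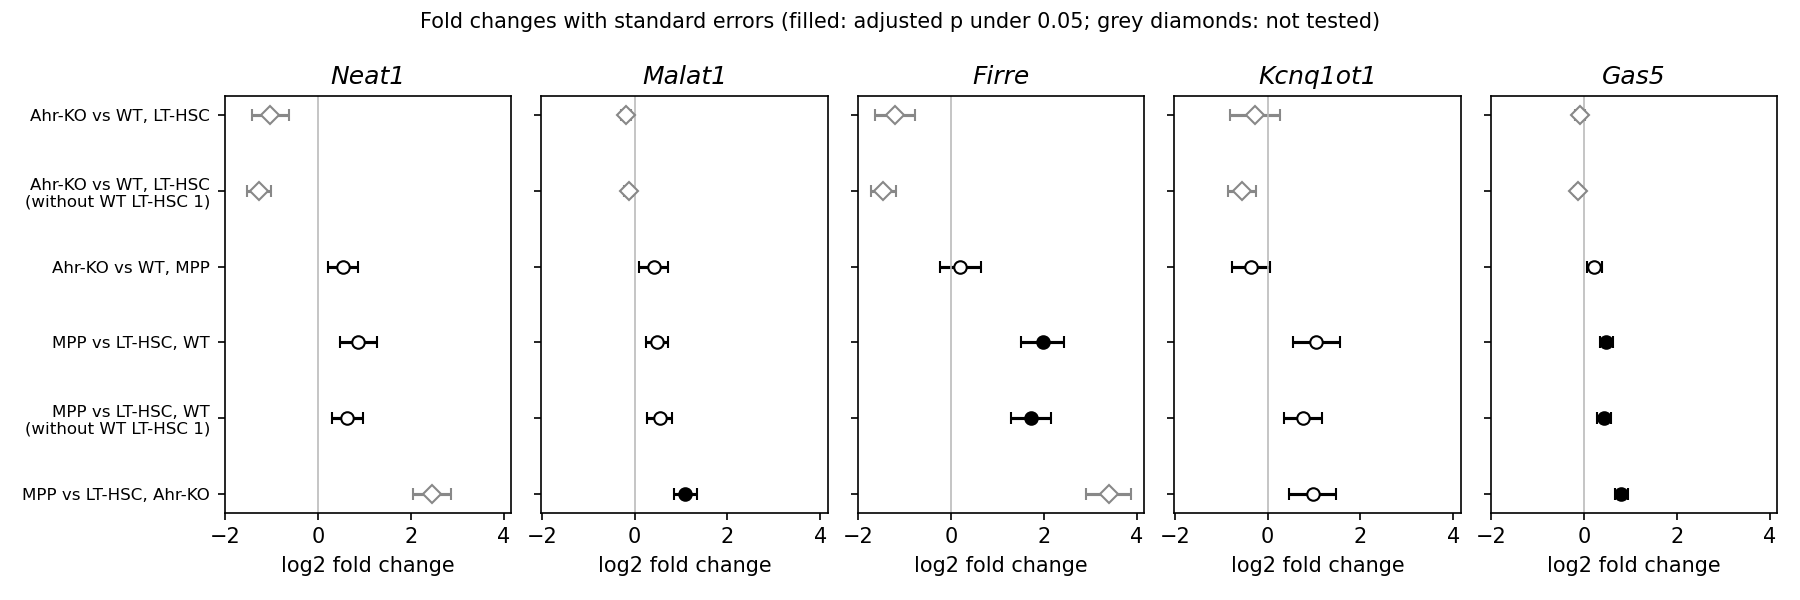
Log2 fold changes (x axis) with standard errors for the 5 RNAs in each comparison (y axis), with filled symbols for an adjusted p under 0.05 and grey diamonds for values that were not tested because they chose the genes. Only the comparisons of MPP with LT-HSC hold filled symbols, Firre and Gas5 in WT and Malat1 and Gas5 in Ahr-KO.

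All 5 RNAs had a higher mean in MPP than in LT-HSC in both genotypes. In WT, 2 of 5 members rose (Firre and Gas5), against 22.3% of 17416 genes called and 11.0% called higher. In Ahr-KO, Malat1 and Gas5 rose and Kcnq1ot1 did not pass the test, in a comparison that called 23.2% of genes and called 12.5% higher. Neat1 and Firre have no test in Ahr-KO, since their low values in Ahr-KO LT-HSC chose them. Their WT test shares the WT LT-HSC libraries, in which they had been seen to be high, with the choosing comparison.

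Firre separated the populations in WT, and in Ahr-KO its values are described. All 5 WT MPP libraries, at 32.9 CPM or more, lay above all 5 WT LT-HSC libraries, at 30.3 CPM or less. The log2 fold change was 1.98 ± 0.46 (3.93-fold, edgeR adjusted p = 0.00389), and 1.72 ± 0.43 (adjusted p = 0.00562) without WT LT-HSC 1, where 29.9% of genes were called and 15.2% called higher. In Ahr-KO it was at 5.08 to 13.6 CPM in LT-HSC and 58.0 to 139 CPM in MPP, a log2 fold change of 3.40 ± 0.49 (10.6-fold), given without a test. Among all genes, 8.32% in WT and 11.1% in Ahr-KO were higher in every MPP library than in every LT-HSC library. Nothing is read from the Ahr-KO share for Firre, since its low values in Ahr-KO LT-HSC chose it.

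Gas5 rose in both genotypes. Its lowest MPP library, at 209 CPM, was above its highest LT-HSC library, at 206 CPM. The log2 fold change was 0.48 ± 0.14 in WT (1.40-fold, adjusted p = 0.0204) and 0.80 ± 0.15 in Ahr-KO (1.75-fold, adjusted p = 0.000419). In WT the call was lost without WT LT-HSC 5 (adjusted p = 0.0529), WT MPP 4 (0.0501) or WT MPP 5 (0.0800).

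In Ahr-KO, Malat1 rose, and Neat1 is described. Neat1 ran from 5.50 to 14.3 CPM over the LT-HSC libraries and from 31.9 to 71.7 CPM over the MPP libraries, with no overlap, a log2 fold change of 2.46 ± 0.41 (5.49-fold) without a test. In WT it was at 0.87 ± 0.39 (adjusted p = 0.121), and 2 of 5 MPP libraries lay within the LT-HSC range. Malat1 ran from 189 to 244 CPM over Ahr-KO LT-HSC and from 270 to 699 CPM over Ahr-KO MPP, also with no overlap, a log2 fold change of 1.10 ± 0.25 (adjusted p = 0.00304), against 0.49 ± 0.25 in WT (adjusted p = 0.175). Whether the change differed between genotypes is the same quantity as the difference given without a test above.

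Kcnq1ot1 did not pass the test in either genotype. Its log2 fold change was 1.05 ± 0.51 in WT (adjusted p = 0.153) and 0.98 ± 0.51 in Ahr-KO (adjusted p = 0.185), and MPP and LT-HSC libraries overlapped in both. Left out of the fit, WT LT-HSC 1 took the WT value to 0.76 ± 0.42.

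Markers of blood lineages also differed between the populations, in both directions. Neutrophil markers summed to 94.2 to 3431 CPM in LT-HSC and to 3235 to 11930 CPM in MPP. Those of B and plasma cells summed to 213 to 587 CPM and 611 to 4695 CPM. Among 13 neutrophil markers, 10 were called higher in WT, and 3 in Ahr-KO, where 6 were negative. For B and plasma cells 8 and 5 of 11 were called higher. Megakaryocyte markers were called lower for 5 of 9 in WT and 8 of 9 in Ahr-KO. Erythroid markers were negative for 6 of 10 in WT and all 10 in Ahr-KO, with 1 called lower in each. Shares of all genes called higher were 11.0% (WT) and 12.5% (Ahr-KO), and of those called lower 11.3% and 10.7%. Without Ahr-KO LT-HSC 2 and 3 the log2 fold change in Ahr-KO was 1.03 ± 0.30 for Malat1 (adjusted p = 0.0236) and 0.71 ± 0.17 for Gas5 (0.00686), and, with no test, 2.30 ± 0.50 for Neat1 and 3.13 ± 0.60 for Firre. Which cells of the MPP libraries held these marker RNAs was not measured, and their part in the members' values was not tested.

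Ratios within a library do not depend on its depth. Firre counts per Neat1 count were 0.783 to 1.28 in WT and 0.789 to 1.15 in Ahr-KO LT-HSC, and over the MPP libraries 1.77 to 3.07 (WT) and 1.51 to 2.34 (Ahr-KO). The ranges of the genotypes overlapped, and each MPP library was above each LT-HSC library. For every 100 Malat1 counts there were 1.89 to 12.3 Neat1 counts in WT LT-HSC, 2.91 to 5.84 in Ahr-KO LT-HSC, and 6.56 to 12.3 (WT) and 10.3 to 13.6 (Ahr-KO) over the MPP libraries. The lowest of these, 1.89, was in WT LT-HSC 1.

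Within groups the 5 RNAs tended to be high or low in the same libraries. In WT MPP, libraries 4 and 5 held the 2 highest values of each member, and in Ahr-KO MPP library 1 held the highest of each. Ahr-KO MPP 5 held the lowest Neat1, Malat1, Kcnq1ot1 and Gas5. With the mean of each group taken off log2(CPM + 1), Pearson's r between Neat1 and Firre was 0.940 over the 20 libraries, which placed Firre at rank 2 among 11885 genes for likeness to Neat1. It was 0.904, at rank 4, without WT LT-HSC 1. Malat1 was the least like the others, with r of 0.508 to 0.744, but of 0.787 to 0.852 without that library. These values share libraries, depth and normalization and are a description.

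**Figure D3:**
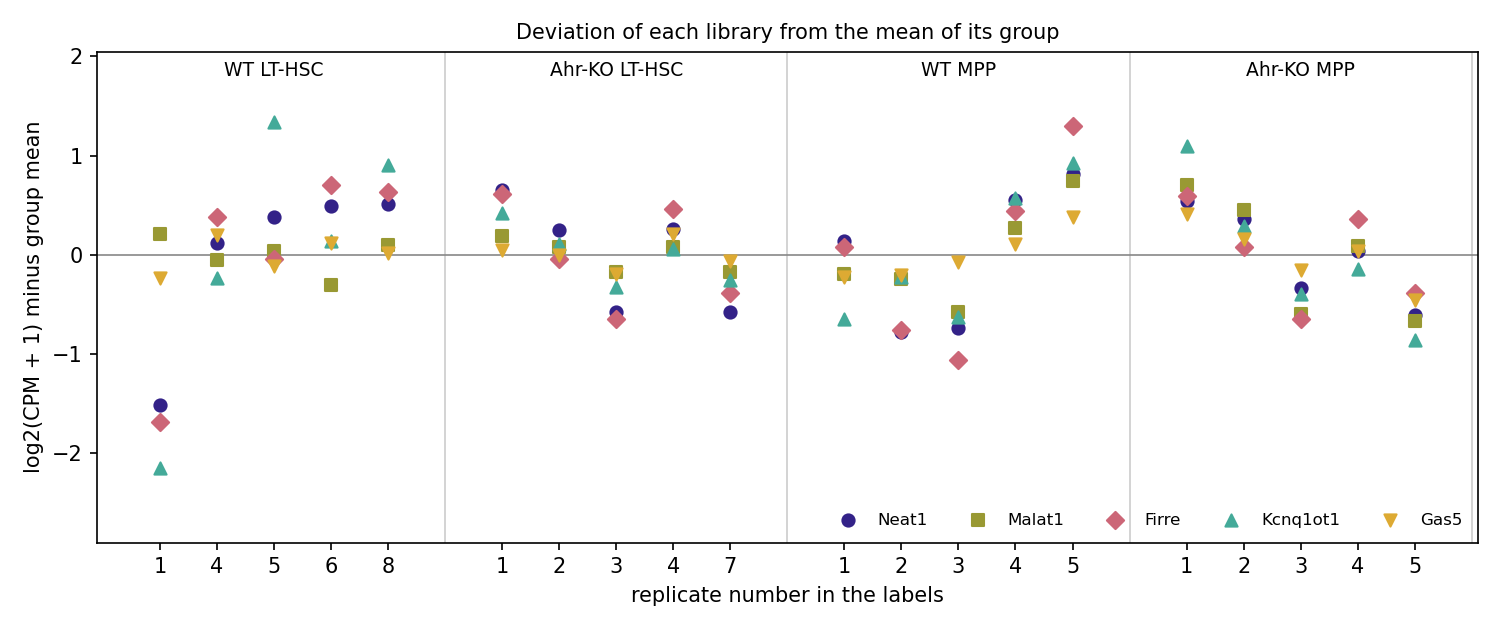
Log2(CPM + 1) minus the mean of the group (y axis) for each library (x axis, replicate number, 4 groups separated by lines), with a symbol for each RNA. WT LT-HSC 1 is low for Neat1, Firre and Kcnq1ot1, less so for Gas5 (-0.23), and not for Malat1 (0.21). The 5 RNAs sit together above 0 in WT MPP 4 and 5 and in Ahr-KO MPP 1.

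Members left out, the genes whose pattern was most like that of a member over the same 20 libraries were the exchange factor Rgl2 (r = 0.942), Xist (0.933) and the splicing regulator Hnrnph1 (0.917) for Neat1. For Firre they were the splicing kinase Clk1 (0.943), Pisd-ps1 (0.936) and AC149090.1 (0.935). Malat1 was most like Tial1 (0.882), Slc7a6os (0.878) and the speckle protein Pnn (0.860). Kcnq1ot1 was most like Pnisr (0.922), Zc3h11a (0.914) and Luc7l (0.907), which encode RNA-binding proteins. Gas5 was most like Zfas1 (0.947), another snoRNA host, Rpl10a (0.906) and its pseudogene Rpl10a-ps1 (0.896), which can share reads with it. Without WT LT-HSC 1 these 3 stayed for Gas5 and the 3 for Firre, and those for Neat1 became Akap8l, Snhg20 and Zc3h7a. For Kcnq1ot1, Pnisr (0.871) stayed and was joined by Xlr3a (0.845) and Taf1d (0.843).

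Library make-up varied alongside. Over 11562 genes, the rank correlation of a library's deviation with exon length was -0.443 in WT LT-HSC 1 and 0.263 to 0.417 in the other WT LT-HSC, where the deviation is that of log2(CPM + 1) from the group mean. In WT MPP 5, where the 5 RNAs were highest of WT MPP, it was -0.411 as well. Its part in the members' values was not tested.

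Many genes that host snoRNAs in their introns, as Gas5 does, rose from LT-HSC to MPP. Of 14 tested, 7 rose and 1 fell in WT (median log2 fold change 0.69), and 10 rose and none fell in Ahr-KO (median 1.51), against medians of 0.01 over all genes in each and 11.0% and 12.5% of them called higher. Snhg5 rose by a log2 fold change of 1.24 ± 0.24 in WT (edgeR adjusted p = 0.000836) and 2.20 ± 0.25 in Ahr-KO (2.96e-06). Snhg20 rose by 1.47 ± 0.36 (0.00535) and 3.06 ± 0.38 (9.06e-06), Snhg1 by 0.90 ± 0.23 (0.00754) and 1.82 ± 0.23 (1.42e-05), and Snhg6 by 0.64 ± 0.22 (0.0467) and 1.48 ± 0.23 (9.21e-05). Snhg18, named after its values were seen, was the one that fell in WT, at -2.49 ± 0.84 (0.0384), against 11.3% of all genes called lower. Without WT LT-HSC 1, 4 rose and none fell in WT, against 15.2% and 14.7% of all genes. Between genotypes no host was called over all libraries. Without WT LT-HSC 1 Snhg5 fell in LT-HSC, at -0.85 ± 0.18 (edgeR adjusted p = 0.0435), where 0.814% of all genes were called lower. Of the hosts tested, 13 of 13 had a positive value in MPP (median 0.44) and 12 of 14 a negative one in LT-HSC (median -0.39).

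Of 12 tested proteins that act on Gas5 RNA or its snoRNAs, 3 rose in WT, and 4 rose and 2 fell in Ahr-KO, against 11.0% of all genes called higher in WT and 12.5% higher and 10.7% lower in Ahr-KO, with medians of 0.11 and 0.08. Nop56, a core protein of C/D snoRNPs, rose by 0.43 ± 0.11 (adjusted p = 0.00636) in WT and 0.76 ± 0.11 (3.85e-05) in Ahr-KO, and its partner Nop58 by 0.27 ± 0.08 (0.0226) and 0.35 ± 0.08 (0.00375). Upf3b, a factor of nonsense-mediated decay, rose by 0.64 ± 0.15 (0.00391) and 1.01 ± 0.15 (6.27e-05). Smg1, the kinase of that pathway, rose in Ahr-KO (0.69 ± 0.22, adjusted p = 0.0285) and was at 0.32 ± 0.22 in WT.

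Paraspeckle proteins, the partners of Neat1, mostly were not called. Of 20 tested, 2 rose in WT and 4 in Ahr-KO, and none fell, with medians of 0.12 and 0.13. Shares over all genes were 11.0% and 12.5% called higher, and 11.3% and 10.7% called lower. Without WT LT-HSC 1, 5 rose in WT, against 15.2% of all genes. Among those that rose were the RNA-binding proteins Taf15 (1.33 ± 0.28, adjusted p = 0.00168, in WT, and 1.46 ± 0.28, 0.000736, in Ahr-KO), Tardbp (0.61 ± 0.13, 0.00245, and 0.62 ± 0.13, 0.00201) and, in Ahr-KO, Hnrnph3 (0.34 ± 0.10, 0.0199). The core proteins Nono and Sfpq, named after their values were seen, had values of 0.14 ± 0.09 and 0.19 ± 0.11 in WT and 0.10 ± 0.09 and 0.15 ± 0.11 in Ahr-KO and passed no test. Mean Nono was 472 ± 22.5 CPM in WT and 471 ± 14.2 CPM in Ahr-KO LT-HSC (SD, n = 5 each).

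Of 16 tested nuclear speckle proteins, which share a compartment with Malat1, 5 rose in WT, and 7 rose and 1 fell in Ahr-KO, with medians of 0.19 and 0.31. Over all genes 11.0% were called higher in WT, and 12.5% higher and 10.7% lower in Ahr-KO, with medians of 0.01. The splicing factors Srsf7 (0.45 ± 0.14, adjusted p = 0.0196, and 0.93 ± 0.14, 5.47e-05), Srsf3 (0.49 ± 0.08, 8.94e-05, and 0.52 ± 0.08, 5.55e-05) and Srsf2 (0.44 ± 0.10, 0.00253, and 0.52 ± 0.10, 0.000596) rose in WT and Ahr-KO. Pnn rose too, by 0.47 ± 0.13 (0.0149) and 0.88 ± 0.13 (8.67e-05).

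Of 7 genes listed as partners or contact sites of Firre, 2 rose in each genotype, with medians of 0.29 and -0.06, against 11.0% and 12.5% of all genes called higher and medians of 0.01. Slc25a12, from a contact site, rose by 0.29 ± 0.09 in WT (adjusted p = 0.0341) and 0.28 ± 0.09 in Ahr-KO (0.0386). Ctcf, which binds the Firre locus, rose in WT (0.22 ± 0.07, 0.0452), and Atf4 in Ahr-KO (0.61 ± 0.18, 0.0197). Hnrnpu, named after its values were seen, was at 0.03 ± 0.10 and -0.13 ± 0.10. Beside the X-linked Firre, Xist rose from LT-HSC to MPP by 1.76 ± 0.35 in WT (adjusted p = 0.00108) and 1.97 ± 0.35 in Ahr-KO (0.000383), and Ftx, from the same X inactivation centre, by 1.09 ± 0.28 (0.00689) and 1.69 ± 0.28 (0.000180). The tested neighbours of Firre, Gm7803 and Stk26, were not called in MPP or between populations.

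In the imprinted domain in which Kcnq1ot1 lies, more of the called genes fell than rose. Of 10 tested genes, 1 rose and 4 fell from LT-HSC to MPP in each genotype, with medians of -0.61 and -0.24 (-0.23 in WT without WT LT-HSC 1). Over all genes 11.0% (WT) and 12.5% (Ahr-KO) were called higher, and 11.3% and 10.7% lower. Cdkn1c, its nearest tested neighbour on one side, fell from 37.1 ± 13.7 to 3.63 ± 1.02 CPM in WT (SD, n = 5 each; log2 fold change -3.35 ± 0.34, adjusted p = 9.92e-07) and from 26.2 ± 5.15 to 3.32 ± 1.87 CPM in Ahr-KO (-2.97 ± 0.34, 3.33e-06). Phlda2, an imprinted growth regulator, also fell, at -2.41 ± 0.24 (6.52e-07) and -2.02 ± 0.23 (4.20e-06). Trpm5, the neighbour on the other side, fell, at -4.26 ± 0.78 (0.000532) and -3.47 ± 0.74 (0.00193), but its mean was at most 1.43 CPM in any group. Cd81, named after its values were seen, fell as well, at -0.79 ± 0.19 (0.00567) and -0.56 ± 0.19 (0.0405), against 11.3% and 10.7% of all genes called lower. Osbpl5, a lipid transfer protein, rose by 0.98 ± 0.20 (0.00115) and 1.10 ± 0.20 (0.000407). Between genotypes none of these was called in MPP, where Cdkn1c was at -0.13 ± 0.39 (adjusted p = 0.962).

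**Figure D4:**
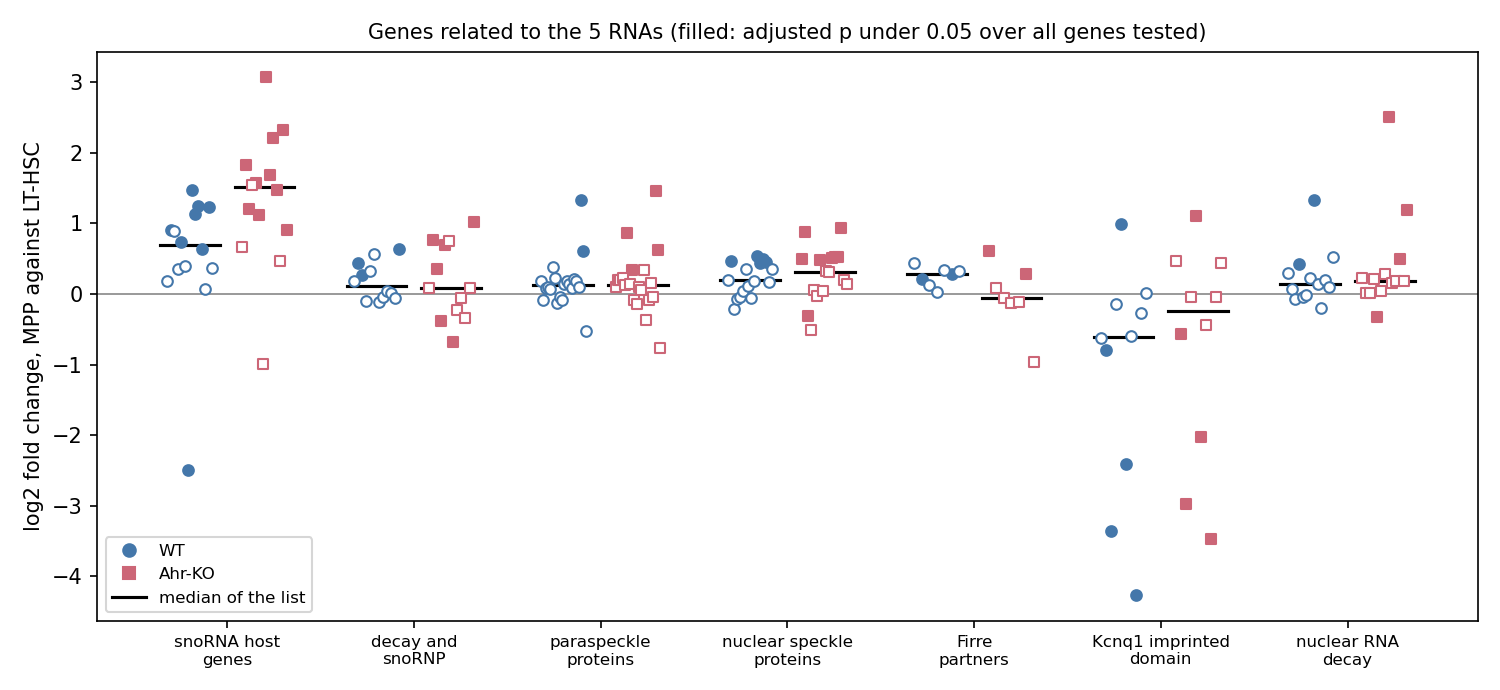
Log2 fold changes of MPP against LT-HSC (y axis) for the genes of 7 lists related to the RNAs (x axis), with WT in blue circles and Ahr-KO in red squares, filled where the adjusted p over all genes was under 0.05, and a black line at each list's median. The snoRNA hosts sit highest, with medians of 0.69 and 1.51, and the Kcnq1 imprinted domain lowest, with medians of -0.61 and -0.24.

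Of 13 tested genes for the decay of nuclear RNA, 2 rose in WT, and 3 rose and 1 fell in Ahr-KO, with medians of 0.14 and 0.19, against 11.0% and 12.5% of all genes called higher. Pabpn1, the nuclear poly(A)-binding protein, rose by 1.33 ± 0.25 (adjusted p = 0.000772) and 2.51 ± 0.27 (1.33e-06). Zfc3h1, of the complex that hands polyadenylated RNA to the exosome, rose in Ahr-KO (1.19 ± 0.27, 0.00306), as did Zcchc7 (0.49 ± 0.17, 0.0406), and the exosome subunit Exosc3 rose in WT (0.42 ± 0.12, 0.0183). Of 25 other tested long noncoding RNAs, 6 rose and 3 fell in WT, and 7 rose and 2 fell in Ahr-KO, with medians of 0.08 and 0.35, against the same shares. Without WT LT-HSC 1, 7 rose and 7 fell in WT, against 15.2% and 14.7% of all genes. Beside Xist and Ftx, 4933439C10Rik rose by 1.76 ± 0.35 (0.0012) and 2.92 ± 0.37 (1.16e-05) and Mir142hg, the host of a blood-specific microRNA, by 1.55 ± 0.34 (0.00275) and 1.90 ± 0.35 (0.000478). Across all 992 tested genes annotated as long noncoding, 7.06% rose and 7.26% fell in WT, and 14.8% rose and 4.33% fell in Ahr-KO. Over all genes these shares were 11.0% and 11.3% in WT, and 12.5% and 10.7% in Ahr-KO.

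Frmd8, the neighbour of Neat1 on the side away from Malat1, was not called between genotypes or populations. From LT-HSC to MPP it was at -0.14 ± 0.11 in WT (adjusted p = 0.376) and -0.21 ± 0.11 in Ahr-KO (0.173).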

How the data were processed

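RNA was sequenced from 20 libraries of sorted mouse bone marrow cells, in 4 groups of 5. Gene counts were deposited by the authors as whole numbers for 49568 gene rows in 1 table for each population. Per the submitters' processing notes, the tools were STAR 2.5.2b, Trimmomatic 0.36, featureCounts of Subread 1.5.0p3, and DESeq2 1.12.4, with the build GRCm38.p5. Those notes give neither the tools' roles nor the annotation or strand setting. The labels' protocols, in a text that speaks of DC, give poly(A) capture with a kit that does not mark strand.

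From these counts, genes passing edgeR's filterByExpr were TMM-scaled and fitted with the quasi-likelihood test (edgeR 4.0.16, limma 3.58.1, R 4.3.3), with p-values adjusted over all genes tested by the Benjamini-Hochberg method and a threshold of 0.05. Genotypes were compared within a population on its 10 libraries, and populations on all 20 in 1 fit. Intervals of 95% are the log2 fold change ± 1.96 standard errors. Alternatives were DESeq2 (1.42.0) size factors, no filter, DESeq2, voom with sample weights, all 20 libraries in 1 fit, each library left out, and the replicate number as a block. The fits were also run on simulated counts, with the same dispersion for every gene and no library set apart. That run therefore does not cover a library like WT LT-HSC 1, and its outcome is not reported here. Loci and lengths are from GENCODE M21, in which 47114 symbols were found once, and 26 symbols that a spreadsheet had turned into dates and 2 repeated symbols were present in the table. Likeness and length trends used genes of at least 5 CPM on average and log2(CPM + 1). The Neat1 promoter was not used here.

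Named genes are the 5 members whatever their values, up to 4 called genes with the smallest p per list, the nearest tested gene on each side of a member, and the 3 genes most like it, predicted genes left out; some genes under this rule are not reported here. Members and lists were chosen with earlier results of these data known.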

Additional observations from a re-analysis of the deposited data

How the results depend on the processing

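The number of genes called between genotypes was small and moved with the tool. In LT-HSC, edgeR called 1 gene, 3 with DESeq2 size factors, 4 with no filter and 14 with all 20 libraries in 1 fit, DESeq2 called 147 and voom 305, and leaving out 1 library gave 0 to 203, the 203 without WT LT-HSC 1 and the 0 without WT LT-HSC 5 or 6 (1287 and 1277 at an unadjusted p under 0.05). In MPP the count of 5 became 3 with DESeq2 size factors, 50 with DESeq2 and 8 with voom, and 0 to 4 with a library left out (854 to 1403 at an unadjusted p where it was 0). No member was called in MPP under any of these. From LT-HSC to MPP in WT, voom called 6493 genes against 3876, and the count of members called was 1 to 2 with a library left out. In Ahr-KO, Malat1 and Gas5 were called under every alternative run, and Kcnq1ot1 only on the libraries with shared numbers. For the difference of effects edgeR called 0 genes (1125 at an unadjusted p under 0.05), DESeq2 51 and voom 18, alternatives chosen after seeing the data, as were the comparisons of populations without Ahr-KO LT-HSC 2 and 3. Voom put this difference at 2.19 for Firre and 2.16 for Neat1, the other way round from edgeR.

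Replicate numbers shared between groups did not pair the libraries between genotypes or in WT, where correlations of same-numbered deviations were -0.398 to 0.0862. Between the populations in Ahr-KO they were 0.0325, 0.126, 0.21 and 0.303 for numbers 1 to 4. The last 3 each exceed the correlations of the same MPP library with LT-HSC libraries of other numbers, which reached 0.0722, 0.175 and 0.263. That is a hint from the data and not the design. There the block gave 4679 called genes (4640 on the same libraries without it) and Kcnq1ot1 at 0.97 ± 0.17 (adjusted p = 0.00786, edgeR), against 1.06 ± 0.32 (0.0333) without the block. With a replicate block on the shared numbers, 0 genes were called by edgeR in LT-HSC (85 at an unadjusted p) and 0 in MPP (752), and 113 with 0 members from LT-HSC to MPP in WT. On the same libraries without the block, chosen after seeing the data, these were 0 genes in LT-HSC (174 at an unadjusted p) and 819 with 1 member in WT. In LT-HSC those libraries are numbers 1 and 4 of each genotype, where Neat1 was at 0.30 with the block and 0.05 without it, and Firre at 0.23 and -0.17. The cause of these moves was not tested beyond the smaller number of libraries.

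WT LT-HSC 1 decides whether Neat1 and Firre overlap between genotypes in LT-HSC. Kcnq1ot1 held few counts for its length, and per-gene counts on unstranded libraries cannot separate isoforms or antisense transcription. How much of Malat1 and long Neat1 was captured, if oligo-dT beads were used as the labels' protocol for other cells says, was not measured.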

Other observations

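Long noncoding genes as a class had medians of opposite sign between genotypes in the 2 populations. Over 768 tested in LT-HSC the median log2 fold change of Ahr-KO against WT was -0.12, and over 785 in MPP it was 0.21, against 0.00 and 0.01 over all genes. No such gene was called in either comparison by edgeR over all libraries. Without WT LT-HSC 1 the LT-HSC median was -0.12 over 799 genes. Of these, 1 was called higher (0.125%) and 4 lower (0.501%), against 0.428% and 0.814% of all genes.

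Kcnq1ot1 became more like Malat1 once WT LT-HSC 1 was left out, with r of 0.852 over 19 libraries against 0.508 over 20. The genes most like Malat1 were then Mir142hg (0.924), Luc7l (0.899) and Zcrb1 (0.897), none of which was among its 3 over 20 libraries. These are descriptions over libraries that share depth and normalization.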
